A study of Mus musculus with 9 samples.

Results

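Glycolysis and hypoxia-inducible genes were followed in mouse CD8+ T cells that had been cultured with IL-21, IL-15 or IL-2, or with no cytokine. The group was a list of 34 genes. It held sugar transporters, most enzymes from hexokinase to lactate dehydrogenase, the lactate exporter, and genes that low oxygen is known to induce. The glycolytic enzymes Gpi1, Eno1 and Pkm were not on it. The array table named 33 of the 34 through probes of their own, out of 17498 genes measured, and these 33 members had 79 probes, 30 of them for Gapdh. The remaining gene, Ankrd37, shared its only probe with Lrp2bp and was left out of the counts.

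The cells were murine CD8+ T cells kept for 4 days with 10 ng/ml of IL-21, of IL-15 or of IL-2, or without cytokine, and all were then restimulated for 4 h with no cytokine present, so the measurements describe restimulated cells after a culture and not cells in contact with the cytokine. The labels name neither the strain, nor the age of the mice, nor the restimulating agent. On each of 9 two-colour arrays, RNA from cells cultured with a cytokine was hybridised together with RNA from untreated cells, and each cytokine had 3 arrays, labelled as biological replicates. A value is therefore a log2 ratio of cytokine-treated over untreated cells for 1 gene on 1 array: it is a difference, not a level, and it cannot be set against another gene's level. Fewer cells of a kind and less RNA per cell cannot be told apart in such bulk RNA.

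Glycolysis splits glucose into pyruvate in the cytosol, and cells that make lactate from that pyruvate can keep glycolysis running without oxygen. Activated and effector CD8 T cells are known for high glycolysis, naive and memory CD8 T cells for a greater use of mitochondrial respiration. HIF-1, a pair of a regulated alpha subunit (Hif1a) and a constant partner, binds a short core sequence near genes of this pathway and switches them on. Prolyl hydroxylases mark the alpha subunit for destruction when oxygen is present, and in T cells the receptor and cytokine signals are also known to raise it.

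The direction of the ratios is likely and not settled. The labels put treated cells in Cy5 on every array, whereas the series design text and a deposited list state that the dyes were exchanged in replicates 2 and 3. The IL-21 minus IL-2 difference inside each replicate, which a dye effect common to its arrays leaves untouched, correlated positively between replicates (0.20, 0.15 and 0.11 over all probes). The same correlations were 0.12, 0.14 and 0.17 for IL-21 minus IL-15, and 0.04, -0.04 and -0.02 for IL-15 minus IL-2, the last near 0. One direction was used for all 9 arrays. If the channel order were reversed on all 9, each value below would change its sign and keep its size. If it were reversed in replicates 2 and 3 alone, sizes would change too, and no gene passed a test with the signs of those replicates turned. Array medians over all probes lay between -0.05 and 0.13. The array of IL-2 replicate 3 stood apart, with 13.6% of its probes beyond 1 in size against 4.10% to 6.47% on the other 8 arrays, so each member called for IL-2 against untreated cells is also given without it. Over all probes, 3 pairs of arrays correlated below -0.3, all of opposite dye orientation by the design text.

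The values being ratios, they cannot show that the CD8 T cell markers were present, only how they changed. Mean log2 ratios of the 5 CD8 T cell markers (Cd8a, Cd8b1, Cd3d, Cd3e and Cd3g) lay between -0.23 and 0.25 with IL-21, between -0.13 and 0.22 with IL-15 and between -0.40 and 0.12 with IL-2. Of 20 measured markers of CD4 T cells, B cells, myeloid cells, NK cells and erythroid cells, none passed the test in any comparison. Eomes, listed as an NK cell marker although CD8 T cells make it too, averaged -0.42 with IL-21, 0.35 with IL-15 and 0.35 with IL-2. The other NK cell markers differed from it. Ncr1, Klrb1c and Klra8 averaged -0.05, 0.37 and -0.08 with IL-21, -0.18, -0.29 and -0.47 with IL-15, and 0.18, 0.08 and -0.26 with IL-2. The medians of the 4 NK cell markers were -0.06 with IL-21, -0.23 with IL-15 and 0.13 with IL-2, and the part of such cells in the results was not tested.

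Promoter sequences of selected members are shown first, because HIF-1 is known to act through a core of 5 letters, ACGTG or GCGTG. RefSeq promoter windows of GRCm38.p6, cut here to the 250 bases before each annotated start, existed for 31 of the 33 members (44 windows in all). The core was searched on both strands, so that CACGT and CACGC are the same core on the opposite strand, and overlapping matches were counted as 1 site. CACGTG, which holds the core on both strands, counts as 1 site. The lines below run 5′ to 3′ on the gene's strand, with matches in capitals. They show the 6 members that passed a test without or with the replicate block described below, and Bnip3, which holds the most sites among these windows without having passed one.
Aldoa chr7:126799255-126799504 (minus strand): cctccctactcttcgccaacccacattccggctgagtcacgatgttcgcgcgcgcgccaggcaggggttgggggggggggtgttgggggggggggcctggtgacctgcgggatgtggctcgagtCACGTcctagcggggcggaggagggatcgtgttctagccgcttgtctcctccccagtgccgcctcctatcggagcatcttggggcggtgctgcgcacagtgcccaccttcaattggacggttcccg
Tpi1 chr6:124814159-124814408 (minus strand): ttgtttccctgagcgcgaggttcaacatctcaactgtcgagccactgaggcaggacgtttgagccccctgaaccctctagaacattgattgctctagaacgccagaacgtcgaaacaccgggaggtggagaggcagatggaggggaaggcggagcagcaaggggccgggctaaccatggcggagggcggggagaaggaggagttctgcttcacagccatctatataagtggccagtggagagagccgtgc
Pgk1 chrX:106186850-106187099 (plus strand): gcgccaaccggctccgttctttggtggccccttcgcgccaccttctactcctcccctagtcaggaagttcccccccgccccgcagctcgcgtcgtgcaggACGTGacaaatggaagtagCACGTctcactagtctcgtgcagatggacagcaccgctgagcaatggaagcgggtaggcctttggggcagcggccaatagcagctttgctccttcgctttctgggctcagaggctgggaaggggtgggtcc
Slc16a3 chr11:120948817-120949066 (plus strand): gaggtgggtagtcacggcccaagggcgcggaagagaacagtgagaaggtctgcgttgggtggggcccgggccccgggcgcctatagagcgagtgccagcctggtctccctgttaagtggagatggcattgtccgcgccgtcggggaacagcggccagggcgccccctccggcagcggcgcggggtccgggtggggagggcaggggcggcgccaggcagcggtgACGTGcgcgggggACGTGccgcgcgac
Egln3 chr12:54203875-54204124 (minus strand): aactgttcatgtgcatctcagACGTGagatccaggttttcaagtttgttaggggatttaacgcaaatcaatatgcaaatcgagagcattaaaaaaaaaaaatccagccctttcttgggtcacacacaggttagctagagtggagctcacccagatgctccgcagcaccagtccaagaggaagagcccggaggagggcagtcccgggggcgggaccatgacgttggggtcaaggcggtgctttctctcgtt
Ldha chr7:46845554-46845803 (plus strand): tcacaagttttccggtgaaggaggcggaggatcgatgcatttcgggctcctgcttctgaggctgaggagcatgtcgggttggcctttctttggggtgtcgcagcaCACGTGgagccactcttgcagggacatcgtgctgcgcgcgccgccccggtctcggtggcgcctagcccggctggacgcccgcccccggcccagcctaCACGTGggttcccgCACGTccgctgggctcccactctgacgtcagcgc
Bnip3 chr7:138909507-138909756 (minus strand): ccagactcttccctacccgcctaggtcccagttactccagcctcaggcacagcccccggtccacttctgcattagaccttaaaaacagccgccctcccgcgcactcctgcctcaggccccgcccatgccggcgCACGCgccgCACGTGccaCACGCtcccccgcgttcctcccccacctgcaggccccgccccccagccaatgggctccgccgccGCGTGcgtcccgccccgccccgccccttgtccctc

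Tpi1 had no site in the window shown, Aldoa and Egln3 each had 1 site, Pgk1 and Slc16a3 had 2, Ldha had 3 and Bnip3 had 4. The 2 sites of Pgk1 lay 150 and 131 bases before the start, whereas those of Slc16a3 lay at 27 and 14 bases, counted to the first base of the site. Ldha held CACGTG 48 and 145 bases before its start. Of the 31 members with a window, 27 (87.1%) held at least 1 site and 18 (58.1%) held at least 2. Among the 13883 measured genes with a window the shares were 51.4% and 21.3%, and of all 32851 windows 38.6% held a site, against 75% of the members' windows. CACGTG stood in the windows of 5 members (16.1%), against 8.41% of the measured genes. The median G+C share was 60.2% in the members' windows and 57.2% in those of measured genes. A gene counted when any of its windows held a site, and another window of Aldoa held 0. The list was drawn up in part from known HIF targets, so its larger shares are no test of HIF action. A match of these letters is a description of the sequence and shows no binding.

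Across the 33 members, the median log2 ratio was -0.08 with IL-21, 0.10 with IL-15 and 0.22 with IL-2, against 0.0033, 0.0022 and 0.05 over all genes. The members were thus spread around 0 after IL-21 culture, with 12 means above and 21 below 0, and mostly above 0 after IL-2 culture, with 26 above and 7 below. With IL-15, 20 member means were above and 13 below 0. Over all genes, 50.7% of means were above 0 with IL-21, 50.4% with IL-15 and 59.2% with IL-2. Within a replicate, the median member was lower with IL-21 than with IL-2 by a log2 difference of -0.32, -0.40 and -0.43 in replicates 1, 2 and 3, where the medians over all genes were -0.04, -0.01 and -0.11. The plot of every member on every array shows that the spread between members came from a few genes: the IL-2 means of Aldoa, Pgk1, Tpi1, Egln3, Ldha, Ddit4 and Slc16a3 lay between 0.90 and 1.57, and no other member's exceeded 0.59.

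**Figure D1:**
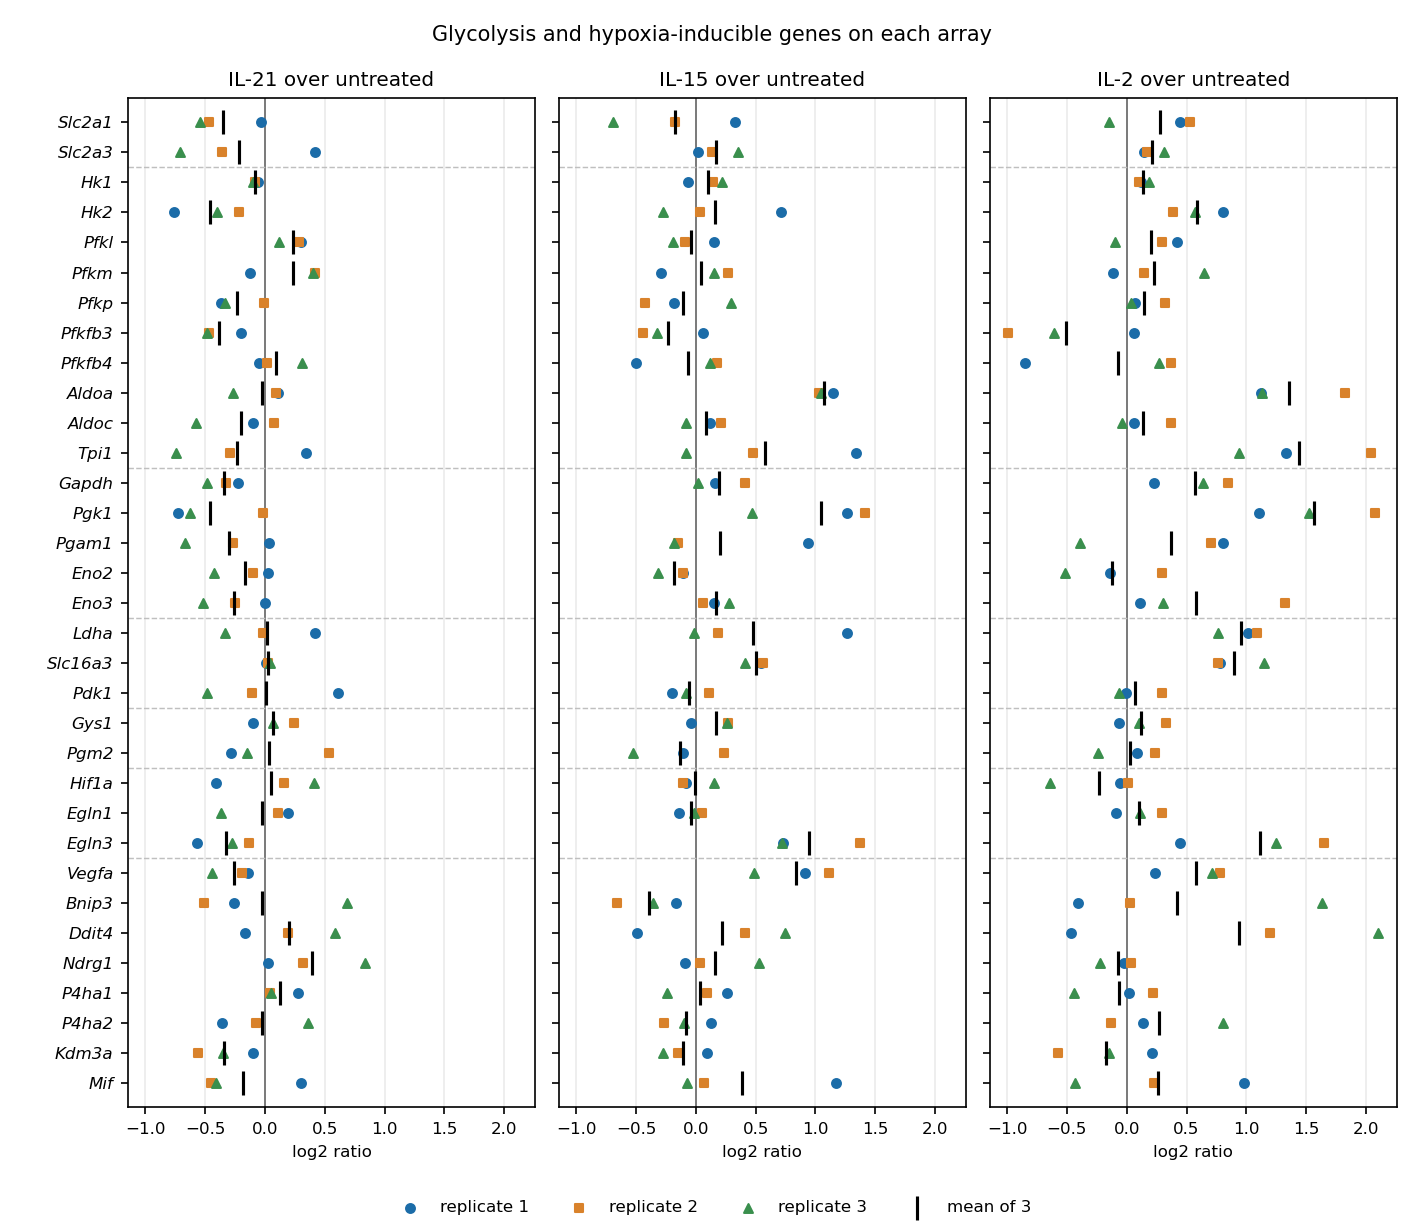
Log2 ratio of cytokine-treated over untreated cells (horizontal axis) for each of the 33 members, grouped by role from sugar entry at the top to other hypoxia-inducible genes at the bottom, with 1 panel per cytokine. Points are the 3 replicates and black bars their mean; Aldoa, Pgk1 and Egln3 lie near 0 or below with IL-21 and above 0.4 on every IL-15 and IL-2 array.

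Genes were tested over all 17498 genes with limma, with p-values adjusted by the Benjamini-Hochberg method and a threshold of 0.05. For IL-2 against untreated cells, 3 of 33 members rose (Aldoa, Pgk1 and Slc16a3) and none fell. The background was 0.76% of all genes called higher. At an unadjusted p under 0.05, 10 members were higher with IL-2, against 6.77% of all genes: Hk2, Aldoa, Tpi1, Gapdh, Pgk1, Eno3, Ldha, Slc16a3, Egln3 and Vegfa. For IL-15 against untreated cells no member passed, where 0.126% of all genes did. At an unadjusted p under 0.05, 5 members were higher with IL-15 (Aldoa, Pgk1, Slc16a3, Egln3 and Vegfa), against 5.1% of all genes. For IL-21 against untreated cells no member passed and 0% of all genes were called lower. Hk2 and Gapdh alone were lower at an unadjusted p under 0.05, beside 3.43% of all genes.

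Same-numbered arrays deviated from their group means together, so the replicate number was also used as a block, which compares cytokines within each replicate. With the replicate block, 6 members rose with IL-2 (Aldoa, Tpi1, Pgk1, Ldha, Slc16a3 and Egln3), beside 1.73% of all genes, and 2 rose with IL-15 (Aldoa and Egln3), beside 0.623%. Against untreated cells the block leaves out variation that the arrays of a replicate share, and its p-values do not cover it. With the replicate as a random block, which keeps that variation, the added calls were lost: the 3 members Aldoa, Pgk1 and Slc16a3 rose with IL-2, beside 0.594% of all genes, and 0 members rose with IL-15, beside 0.166%. Adjusted p-values there were 0.0895 for Tpi1, 0.151 for Ldha and 0.0648 for Egln3 with IL-2, and 0.0707 for Aldoa and 0.195 for Egln3 with IL-15. The 3 calls for IL-2 remained 3 with median centring of each array and became 0 with quantile normalization. They also became 0 without any 1 replicate, without the IL-2 replicate 3 array alone, or with the sign of replicates 2 and 3 turned. In a blocked fit without the IL-2 replicate 3 array, an alternative chosen after seeing the data, 0 members passed in any of the 6 comparisons.

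The entry of sugar was measured through Slc2a1 (GLUT1) and Slc2a3 (GLUT3), the glucose transporters of T cells. Slc2a1 had log2 ratios of -0.04, -0.47 and -0.55 with IL-21, of 0.33, -0.17 and -0.69 with IL-15, and of 0.44, 0.53 and -0.15 with IL-2. Its IL-21 values were the lowest of the 3 cytokines in replicates 1 and 2, and the groups overlapped. The IL-21 minus IL-2 difference was -0.62 ± 0.30 (limma standard error), with an adjusted p of 0.899. Slc2a3 averaged -0.22 ± 0.58 with IL-21, 0.17 ± 0.17 with IL-15 and 0.21 ± 0.09 with IL-2 (SD, n = 3 each), above 0 on all IL-15 and IL-2 arrays and on 1 IL-21 array.

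Hexokinases trap glucose in the cell as its phosphate. Hk2, the inducible form, had log2 ratios of -0.76, -0.21 and -0.40 with IL-21, of 0.71, 0.03 and -0.27 with IL-15, and of 0.80, 0.39 and 0.57 with IL-2. Every IL-21 array was below 0 and every IL-2 array above it, while the IL-15 arrays spread from below 0 to 0.71 and overlapped both. The IL-21 minus IL-2 difference was -1.05 ± 0.28, and its adjusted p of 0.315 did not pass. Hk1, the constitutive form, showed the same order in the mean over its 3 probes, in much smaller values, from -0.10 to -0.06 with IL-21 and from 0.10 to 0.19 with IL-2. All 3 probes had a lower mean with IL-21 than with IL-2. However, 0 of them were below 0 on all IL-21 arrays, and 2 had an IL-2 mean below 0.

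Phosphofructokinase, the main control step of the pathway, gave smaller values. The subunits Pfkl (liver type), Pfkm (muscle type) and Pfkp (platelet type) had means from -0.24 to 0.23 with IL-21, from -0.10 to 0.04 with IL-15 and from 0.14 to 0.22 with IL-2. For Pfkp, whose 5 probes all had a lower mean with IL-21 than with IL-2, the difference was -0.38 ± 0.22. Pfkfb3, which makes the activator of phosphofructokinase and is a known HIF target, did not follow the enzymes below it. It had log2 ratios of -0.20, -0.47 and -0.49 with IL-21, of 0.06, -0.44 and -0.33 with IL-15, and of 0.06, -0.99 and -0.61 with IL-2. All 3 cytokines thus had a mean below 0, from -0.51 with IL-2 to -0.23 with IL-15, and none passed the test. Pfkfb4, its paralogue, averaged 0.09 with IL-21, -0.07 with IL-15 and -0.07 with IL-2. The 2 probes of Pfkfb4 disagreed in sign, with IL-2 means of -0.45 and 0.31.

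Aldoa, the aldolase of most cells, splits the 6-carbon sugar into triose phosphates. Its log2 ratios were 0.11, 0.09 and -0.27 with IL-21, 1.15, 1.03 and 1.04 with IL-15, and 1.12, 1.82 and 1.13 with IL-2. The 3 IL-21 arrays lay near 0, and all 6 arrays of IL-15 and IL-2 lay far above them. Aldoa rose 2.56-fold with IL-2, by 1.36 ± 0.16 on the log2 scale with an adjusted p of 0.0123 by limma. Without the IL-2 replicate 3 array the change was 1.47 with an adjusted p of 0.0715. With IL-15 it was 1.07 ± 0.16 with an adjusted p of 0.0593, of 0.0305 with the replicate block and of 0.0558 in the blocked fit without the IL-2 replicate 3 array. Aldoc, the second aldolase on the list, averaged -0.20 with IL-21, 0.08 with IL-15 and 0.13 with IL-2, with no call.

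Tpi1, which interconverts the triose phosphates, had log2 ratios of 0.34, -0.29 and -0.74 with IL-21, of 1.34, 0.48 and -0.09 with IL-15, and of 1.33, 2.05 and 0.94 with IL-2. All IL-2 arrays exceeded all IL-21 arrays, and within each replicate IL-21 was below IL-15. The IL-2 change was 1.44 ± 0.31, with an adjusted p of 0.0891, and of 0.0283 with the replicate block. Without the IL-2 replicate 3 array it was 1.69 with an adjusted p of 0.23. Its 2 probes differed in size, at 0.91 and 1.97 for the IL-2 mean.

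Gapdh, which oxidises the triose phosphate and is often used as a constant control, was measured by 30 probes. Averaged over them, the log2 ratios were -0.22, -0.33 and -0.49 with IL-21, 0.16, 0.41 and 0.02 with IL-15, and 0.22, 0.85 and 0.64 with IL-2. In this mean, every IL-21 array was below 0 and every array of IL-15 and IL-2 above it. On the IL-15 replicate 3 array single probes ran from -1.05 to 1.07, and many were below 0. The IL-21 minus IL-2 difference was -0.92 ± 0.21, with an adjusted p of 0.224, of 0.101 with the replicate block, and of 0.0429 with the replicate as a random block. Of the 30 probes, 29 were lower with IL-21 than with IL-2 in all 3 replicates, and the probe means ranged from -1.34 to 0.03. The probes share RNA and arrays and are no replicates, and those of a gene with many related sequences may bind more than one transcript.

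**Figure D2:**
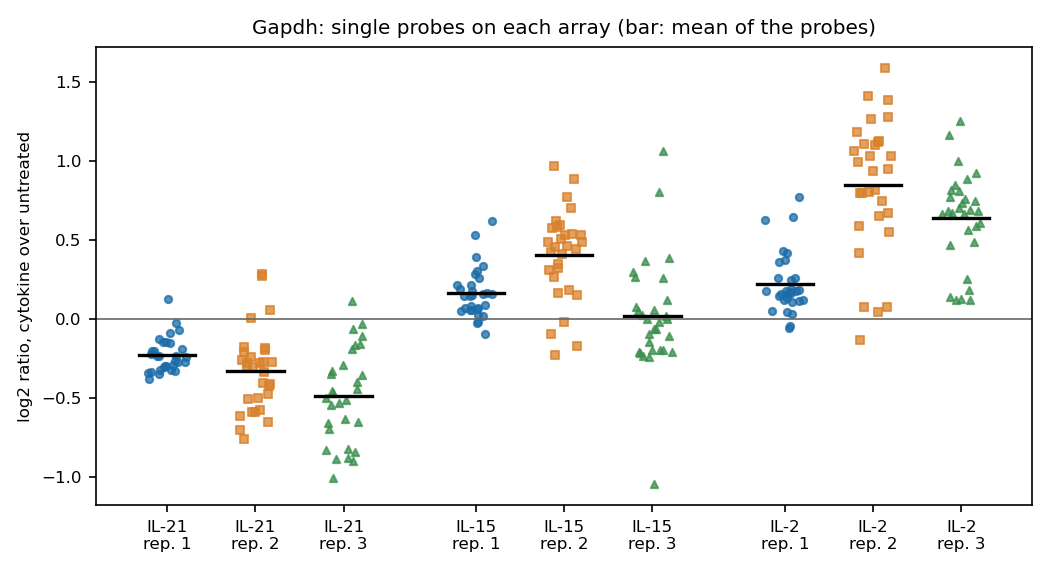
Log2 ratio (vertical axis) of each of the 30 Gapdh probes on each of the 9 arrays, IL-21 on the left, IL-15 in the middle and IL-2 on the right, with black bars for the mean of the probes on an array. The bars lie between -0.49 and -0.22 with IL-21, between 0.02 and 0.41 with IL-15 and between 0.22 and 0.85 with IL-2.

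Pgk1, the first step of glycolysis that yields ATP, had the largest mean change of the list with IL-2. It had log2 ratios of -0.73, -0.02 and -0.62 with IL-21, of 1.26, 1.42 and 0.47 with IL-15, and of 1.10, 2.07 and 1.52 with IL-2. In this mean over its 2 probes, all IL-21 values were below 0, and no other array fell below 0.47. Single probes reached 0.06 on the IL-21 replicate 2 array and 0.25 on the IL-15 replicate 3 array. Pgk1 rose 2.96-fold with IL-2, by 1.57 ± 0.24 on the log2 scale with an adjusted p of 0.0293 by limma. Without the IL-2 replicate 3 array it was 1.59 with an adjusted p of 0.193. With IL-15 the change was 1.05 ± 0.24, with an adjusted p of 0.195, and of 0.0532 with the replicate block. The means of its 2 probes differed by little, at 1.49 and 1.65 for IL-2.

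The next steps changed less. Pgam1, the mutase, averaged -0.30 ± 0.35 with IL-21, 0.20 ± 0.64 with IL-15 and 0.37 ± 0.66 with IL-2 (SD, n = 3 each). Eno3, the muscle type of enolase, averaged -0.26 with IL-21, 0.16 with IL-15 and 0.58 with IL-2, the last drawn up by 1 array at 1.33. Eno2, the neuronal type, had means between -0.18 and -0.12 with all 3 cytokines.

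At the end of the pathway, Ldha turns pyruvate into lactate and Slc16a3 (MCT4) exports lactate from the cell. Ldha had log2 ratios of 0.42, -0.02 and -0.34 with IL-21, of 1.27, 0.19 and -0.02 with IL-15, and of 1.02, 1.09 and 0.77 with IL-2. The IL-2 arrays were close to each other and above all IL-21 arrays, whereas the IL-15 arrays spread over both. The IL-2 change was 0.96 ± 0.24, with an adjusted p of 0.157, and of 0.0426 with the replicate block. Without the IL-2 replicate 3 array it was 1.05 with an adjusted p of 0.471.

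Slc16a3 had log2 ratios of 0.01, 0.02 and 0.04 with IL-21, of 0.54, 0.56 and 0.41 with IL-15, and of 0.78, 0.77 and 1.14 with IL-2. The 3 cytokines did not overlap and stood in the order IL-21, IL-15, IL-2, from low to high. Slc16a3 rose 1.86-fold with IL-2, by 0.90 ± 0.12 on the log2 scale with an adjusted p of 0.0152 by limma, and without the IL-2 replicate 3 array the change was 0.77 with an adjusted p of 0.121. With IL-15 the change was 0.51 ± 0.12 with an adjusted p of 0.196.

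Pdk1, the kinase that shuts pyruvate out of the citric acid cycle and a known HIF-1 target, had log2 ratios of 0.61, -0.11 and -0.49 with IL-21, of -0.20, 0.11 and -0.08 with IL-15, and of -0.01, 0.29 and -0.06 with IL-2. The 3 cytokines overlapped and the IL-21 minus IL-2 difference was -0.07 ± 0.28. Gys1 (glycogen synthase) and Pgm2, which were grouped under glycogen, had means between -0.13 and 0.17 in all 3 cytokines, with no call. Symbols were updated through Entrez IDs, and whether this Pgm2 is the phosphoglucomutase of glycogen metabolism was not checked.

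Of the oxygen-sensing genes, Egln3 differed and Hif1a and Egln1 did not pass any test. Hif1a, the regulated subunit of HIF-1, had log2 ratios of -0.41, 0.16 and 0.41 with IL-21, of -0.08, -0.11 and 0.15 with IL-15, and of -0.06, 0.01 and -0.64 with IL-2. The groups overlapped, and the IL-21 minus IL-2 difference was 0.28 ± 0.26 with an adjusted p of 0.999. Its 2 probes disagreed, with IL-21 means of 0.34 and -0.24 and IL-21 minus IL-2 differences of 0.53 and 0.03. These are mRNA values, and the alpha subunit is known to be controlled mostly as a protein. Egln1 (PHD2), the main prolyl hydroxylase, had means of -0.02 with IL-21, -0.04 with IL-15 and 0.10 with IL-2.

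Egln3 (PHD3), a prolyl hydroxylase that hypoxia itself induces, had log2 ratios of -0.57, -0.13 and -0.27 with IL-21, of 0.73, 1.38 and 0.72 with IL-15, and of 0.44, 1.65 and 1.25 with IL-2. All IL-21 arrays were below 0 and all other arrays above 0.4. The IL-2 change of 1.11 ± 0.23 had an adjusted p of 0.0805, and of 0.0175 with the replicate block. Without the IL-2 replicate 3 array it was 1.04 with an adjusted p of 0.438. The IL-15 change of 0.94 ± 0.23 had an adjusted p of 0.227, of 0.048 with the replicate block and of 0.0691 in the blocked fit without the IL-2 replicate 3 array.

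Vegfa, a growth factor for vessels and a classical HIF target, had log2 ratios of -0.14, -0.19 and -0.44 with IL-21, of 0.91, 1.12 and 0.49 with IL-15, and of 0.24, 0.78 and 0.71 with IL-2. It had the same separation as Egln3, all IL-21 arrays below 0 and all others above, with a higher mean for IL-15 (0.84) than for IL-2 (0.58). Its adjusted p was 0.111 for IL-15 and 0.225 for IL-2.

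Bnip3, a mitophagy receptor that HIF-1 is known to induce, did not share this pattern. It had log2 ratios of -0.26, -0.51 and 0.69 with IL-21, of -0.16, -0.66 and -0.36 with IL-15, and of -0.40, 0.02 and 1.63 with IL-2. Its only value above 1 came from the IL-2 replicate 3 array. Ddit4 (REDD1), a stress-induced inhibitor of mTORC1, had its highest value there too, at 2.10, with an IL-2 mean of 0.94 ± 1.30 (SD, n = 3). Ndrg1, a stress-responsive gene, averaged 0.39 with IL-21, 0.16 with IL-15 and -0.07 with IL-2. P4ha1 and P4ha2, subunits of the collagen prolyl hydroxylases, Kdm3a, a histone demethylase, and Mif, a cytokine, had means between -0.34 and 0.12 with IL-21, between -0.11 and 0.39 with IL-15 and between -0.17 and 0.27 with IL-2.

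The comparison of IL-21 with IL-2 bears on the opposing programmes that the title of the series names. Over the list, 25 of 33 members had a lower mean with IL-21 and 8 a higher one, with a median log2 difference of -0.38, against -0.05 over all genes. Of all genes, 42.5% had a higher mean with IL-21. Without the replicate block no member passed, beside 0.0743% of all genes called lower. With the replicate block 3 members fell with IL-21 relative to IL-2, beside 0.497% of all genes. The log2 difference was -2.02 ± 0.23 for Pgk1 (adjusted p 0.0257 with the block and 0.0818 without), -1.38 ± 0.19 for Aldoa (0.0459 and 0.0796) and -1.44 ± 0.20 for Egln3 (0.0449 and 0.224), where the errors are those of the blocked fit. These calls were lost without the IL-2 replicate 3 array. The blocked fit without it gave -1.86 for Pgk1 (adjusted p 0.109), -1.43 for Aldoa (0.161) and -1.33 for Egln3 (0.171), and the fit without a block gave adjusted p-values of 0.262 for Pgk1, 0.195 for Aldoa and 0.531 for Egln3. With the replicate as a random block, 6 members were lower (Aldoa, Tpi1, Gapdh, Pgk1, Slc16a3 and Egln3), beside 1.02% of all genes. At an unadjusted p under 0.05, 10 members were lower with IL-21, beside 4.46% of all genes, and these were the 10 that were higher with IL-2 over untreated cells at that threshold, a comparison that shares the IL-2 arrays.

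Within replicates, the IL-21 minus IL-2 difference of Pgk1 was -1.83, -2.09 and -2.15. The Aldoa difference was -1.01, -1.73 and -1.40, and that of Egln3 -1.01, -1.78 and -1.52. Tpi1 gave -0.99, -2.34 and -1.68, a wider spread, and its adjusted p was 0.0835 with the replicate block. Slc16a3 gave -0.77, -0.74 and -1.11, with an adjusted p of 0.0768 with the replicate block. Ldha gave -0.60, -1.10 and -1.10, with an adjusted p of 0.168 there.

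**Figure D3:**
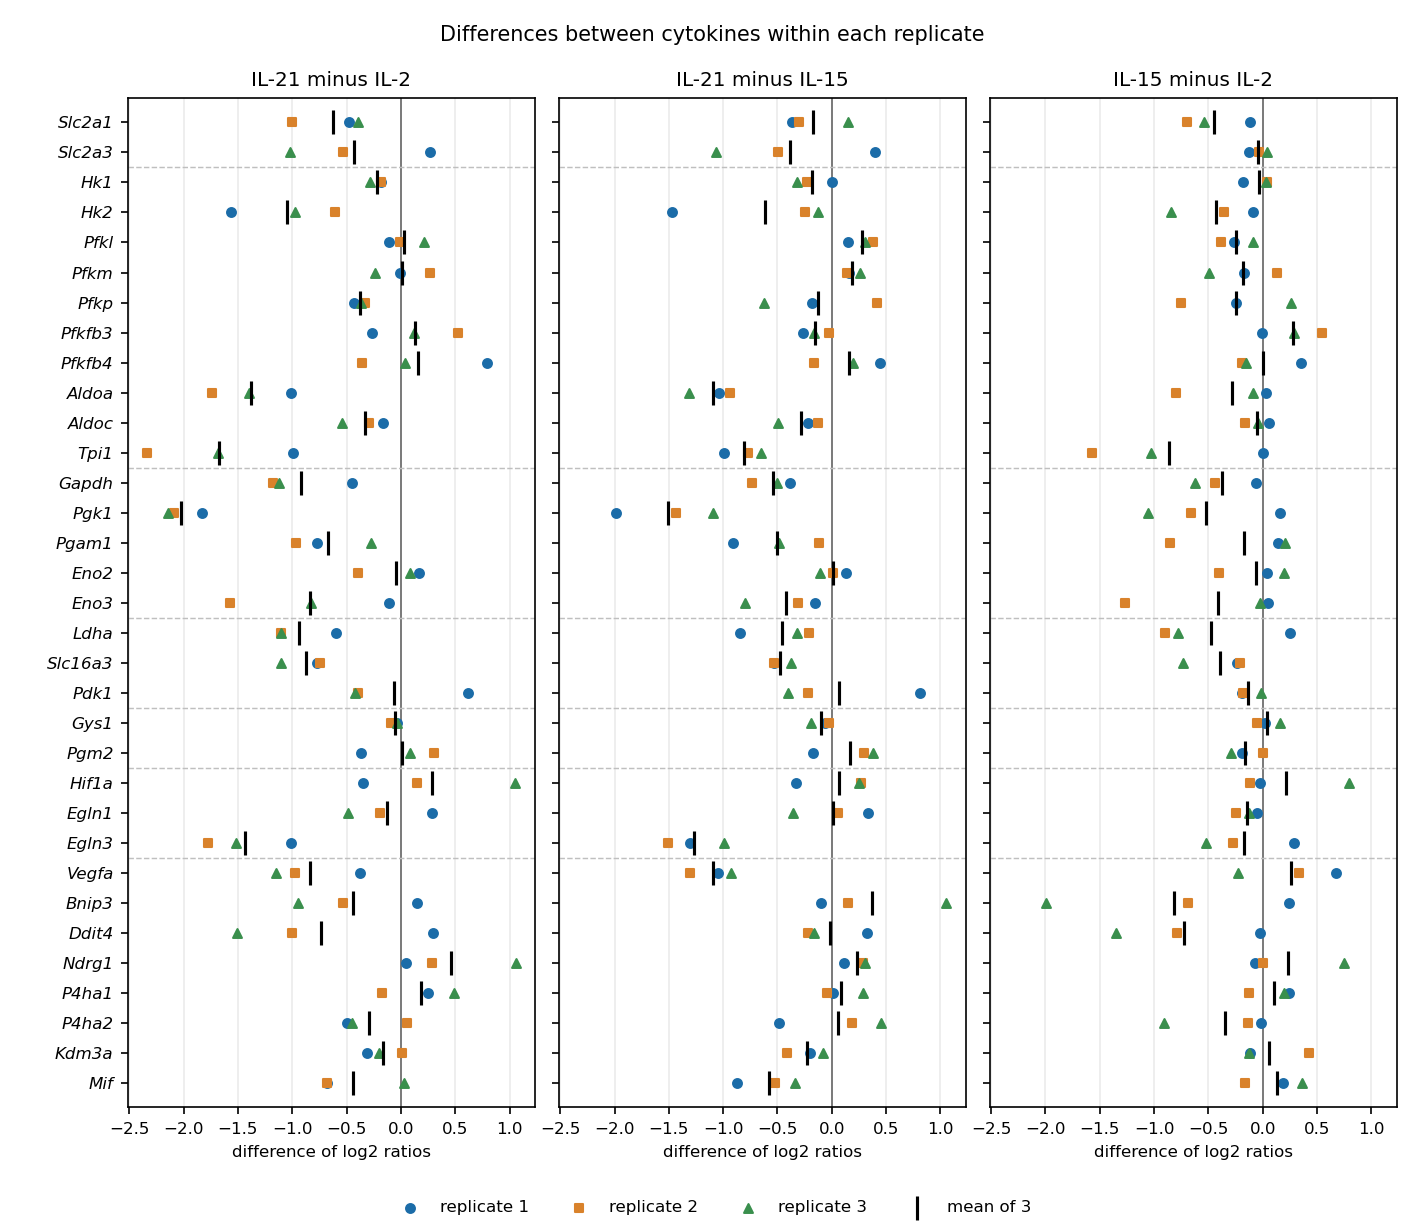
Difference of log2 ratios between cytokines within each replicate (horizontal axis) for each of the 33 members, with 1 panel per pair of cytokines; points are replicates and black bars their mean. Pgk1 lies near -2 in all 3 replicates for IL-21 minus IL-2, whereas in the IL-15 minus IL-2 panel 24 of 33 means lie below 0, with a median of -0.17 and a wide replicate spread for Bnip3, Ddit4 and Tpi1. Over all genes, 42.1% of the IL-15 minus IL-2 means were above 0.

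IL-21 was below IL-15 for fewer members. The median log2 difference was -0.17, against -0.0040 over all genes, with 21 members lower and 12 higher. Of all genes, 49.4% were higher with IL-21. No member passed without or with the replicate block, beside 0.0171% and 0.16% of all genes. With the replicate as a random block, 4 members were lower (Aldoa, Pgk1, Egln3 and Vegfa), beside 0.617% of all genes. At an unadjusted p under 0.05, 6 members were lower (Aldoa, Gapdh, Pgk1, Slc16a3, Egln3 and Vegfa), beside 3.61% of all genes. Pgk1 differed by -1.99, -1.43 and -1.10 within replicates 1, 2 and 3, Egln3 by -1.30, -1.51 and -0.99, and Vegfa by -1.05, -1.31 and -0.93. The adjusted p-values of these 3 genes were 0.263, 0.374 and 0.225, and with the replicate block 0.0808, 0.0808 and 0.11.

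Between IL-15 and IL-2 the median log2 difference of the members was -0.17, against -0.04 over all genes. With IL-15, 24 members were lower and 9 higher, where 42.1% of all genes were higher. No member passed, where 0% of all genes were called lower. At an unadjusted p under 0.05 only Slc16a3 was lower with IL-15, beside 0.943% of all genes, at -0.24, -0.21 and -0.73 within replicates. For Aldoa the IL-15 minus IL-2 difference was -0.28 ± 0.23 and for Egln3 -0.17 ± 0.32. Such a miss of the threshold does not show that the 2 cytokines acted alike: for Tpi1 the difference was -0.86 ± 0.44.

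Separation of the arrays was also counted with no test. Every IL-21 array was below every IL-2 array for 12 of 33 members, against 6.53% of all genes: Hk1, Hk2, Pfkp, Aldoa, Tpi1, Gapdh, Pgk1, Eno3, Ldha, Slc16a3, Egln3 and Vegfa. Every IL-21 array was below every IL-15 array for 7 members, against 6.24% of all genes, and every IL-15 array below every IL-2 array for 1 member, Slc16a3, against 2.87%. All 3 IL-2 arrays were above 0 for 13 members, against 15.3% of all genes, and all 3 IL-15 arrays for 8, against 15.1%. All 3 IL-21 arrays were above 0 for 4 members or 12.1% (Pfkl, Slc16a3, Ndrg1 and P4ha1), against 11.5% of all genes, so this share was near the background. All 3 IL-21 arrays were below 0 for 10 members, against 12.4% of all genes: Slc2a1, Hk1, Hk2, Pfkp, Pfkfb3, Gapdh, Pgk1, Egln3, Vegfa and Kdm3a.

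**Figure D4:**
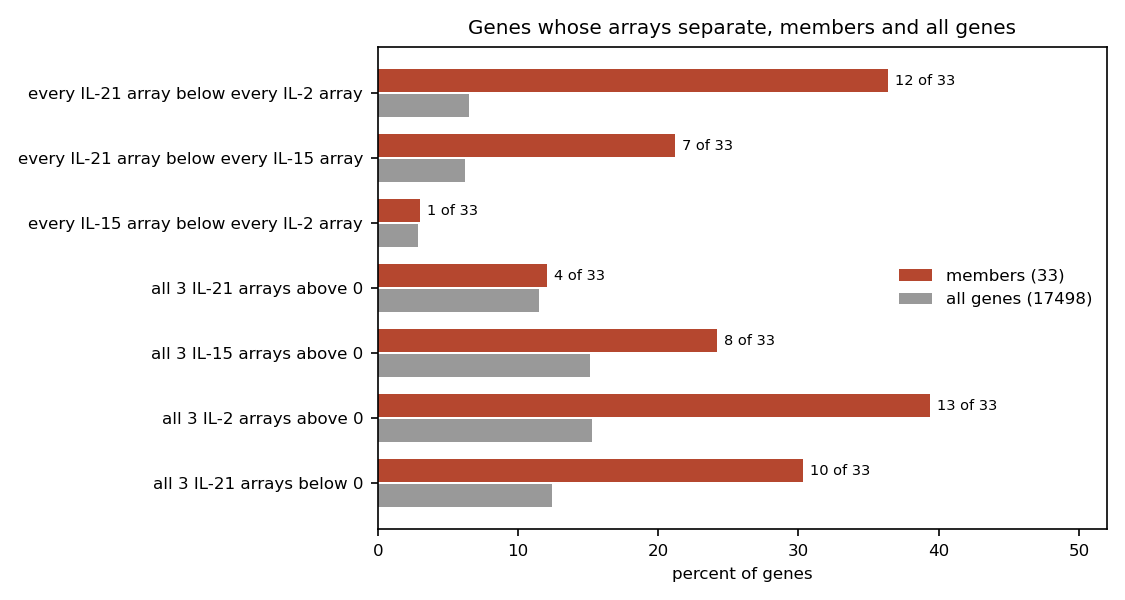
Percent of genes (horizontal axis, from 0) whose arrays separate in the way named on the left, in red for the 33 members and in grey for all 17498 genes. The longest red bars are those for IL-2 above 0 (13 of 33) and for IL-21 below IL-2 (12 of 33); the bars for IL-15 below IL-2 and for IL-21 above 0 are close to the grey ones.

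Arranged by role, the 5 lower glycolytic genes (Gapdh, Pgk1, Pgam1, Eno2 and Eno3) had a median IL-21 minus IL-2 difference of -0.84 and all 5 were below 0. Over all genes, 42.5% of these differences were above 0. The 3 genes of the fate of pyruvate had a median of -0.87, and the 10 upper glycolytic genes one of -0.27, with 6 of the 10 below 0. The 8 other hypoxia-inducible genes had a median of -0.37 with 6 below 0. No difference between these roles was tested.

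Genes of the pathway outside the list were read from further lists. Of 16 measured other glycolytic enzymes and sugar, lactate or pyruvate carriers, none passed in any of the 6 comparisons with or without the replicate block. Their median IL-21 minus IL-2 difference was -0.07, with 11 of 16 below 0. Over all genes the median of that difference was -0.05 and 42.5% of genes were above 0, and the sign counts of each list below stand beside that background. Pkm, the pyruvate kinase of T cells, averaged 0.07 ± 0.41 with IL-21, 0.25 ± 0.25 with IL-15 and 0.56 ± 0.28 with IL-2 (SD, n = 3 each), with an adjusted p of 0.332 for IL-2. Pgam2, the muscle mutase, averaged 0.43 with IL-15 (adjusted p 0.428). Pgm1 had log2 ratios of 0.35, 8.78 and 0.23 with IL-2, so its mean of 3.12 came from 1 array, at the highest value of the whole table.

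Of 24 measured other hypoxia-inducible genes, none passed without the block, and 17 of 24 had a lower mean with IL-21 than with IL-2, with a median of -0.17. Bhlhe40, a transcriptional repressor that hypoxia and T cell activation both induce, was lower with IL-21 than with IL-2 by a log2 difference of -1.17 ± 0.25, with an adjusted p of 0.192, of 0.0244 with the replicate block and of 0.0161 with the random block. In the blocked fit without the IL-2 replicate 3 array no gene passed in that comparison. Against untreated cells it was at -0.87 with IL-21, with an adjusted p of 0.321, of 0.0387 with the replicate block and of 0.226 with the random block. Mxi1, an antagonist of Myc, had log2 ratios of 0.51, 0.44 and 1.56 with IL-2 (adjusted p 0.159), the highest on the replicate 3 array, and Ak4, a mitochondrial adenylate kinase, one of -0.42 with IL-21 (adjusted p 0.639).

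Of 16 HIF pathway regulators, none passed, and their median IL-21 minus IL-2 difference was -0.08. Siah2, a ubiquitin ligase that removes prolyl hydroxylases, was at -0.47 with IL-21 (adjusted p 0.476), Elob, a subunit of the ligase that destroys HIF alpha, at 0.51 with IL-2 (adjusted p 0.4), and Cited2, a competitor of HIF for its coactivators, at 0.55 with IL-2 (adjusted p 0.402).

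Of 23 genes of pyruvate dehydrogenase and the citric acid cycle, none passed either, and 17 of 23 were lower with IL-21 than with IL-2, with a median of -0.20. Mdh1, the cytosolic malate dehydrogenase, averaged 0.01 with IL-21, 0.54 with IL-15 and 0.78 with IL-2, with an adjusted p of 0.135 for IL-2, and Cs, citrate synthase, averaged -0.13 with IL-21, 0.28 with IL-15 and 0.66 with IL-2, with an adjusted p of 0.282. The 7 pentose phosphate genes, the 8 glycogen genes and the 11 regulators of T cell sugar metabolism had no call, and their medians of IL-21 against IL-2 were -0.29, -0.14 and -0.03. Tkt, a transketolase of the pentose phosphate pathway, was at 0.64 with IL-2 (adjusted p 0.287), and Pygb, a glycogen phosphorylase, at 0.36 with IL-2 (adjusted p 0.559). Myc, a driver of glycolytic genes in activated T cells, had log2 ratios of 0.24, -0.82 and -1.36 with IL-2 (adjusted p 0.553), the lowest on the replicate 3 array.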

How the data were processed

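Groups and replicate numbers come from the sample titles. The deposited table holds 1 normalized value per probe and array for 36547 probes. These values were taken as log2 ratios, since the deposited numbers are signed and run from -8.01 to 8.78. Such a range is too wide for log10, but a natural log cannot be told apart, and all log2 changes would then be too small by 1 common factor. Per the labels' protocols, the RNA was amplified and coupled to dye through amino allyl groups. The scanner software, background correction and normalization are not stated in the sources used here, and the authors' normalization was kept. Without intensities, dim probes were kept in, and precision is limited by the number of arrays.

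The platform annotation named the probes, and Entrez IDs served to update symbols: 26926 probes had 1 symbol, 203 had several and 9418 were unnamed. The 41 control probes were left out. The mean over a gene's probes was used, giving 17498 genes, of which 5883 had several probes. The fit used limma 3.58.1 under R 4.3.3, with 1 coefficient per cytokine over 9 arrays and no block. Its 6 two-sided comparisons were each adjusted over all genes (Benjamini-Hochberg, threshold 0.05). Errors are limma's standard errors unless given as SD. The code was tested on simulated data.

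Deviations from the group mean correlated at 0.15 to 0.65 in all 9 pairs of same-numbered arrays, so the numbers were taken to pair the arrays. These correlations cannot show that same-numbered arrays share cells or animals, because a dye exchange between replicates would also give such arrays a common deviation. Whether the numbers pair the arrays was not tested further. Fits with the replicate block are given where they change a call. The labels call the replicates biological. Whether the arrays of a replicate share 1 untreated extract is not stated.

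Values per array are given for members called with or without the replicate block and for Hif1a, Slc2a1, Hk2, Gapdh, Pdk1, Vegfa, Bnip3 and Pfkfb3. The further lists are described by counts, with up to 3 genes of smallest p each. The members and the lists were chosen with earlier results of these data known. The alternatives were quantile normalization, median centring, the replicate as a fixed or random block, a dye term, the sign of replicates 2 and 3 turned, the median over probes, a fit of single probes, and leaving out each replicate or IL-2 replicate 3. The blocked fit without IL-2 replicate 3 was added after seeing the data. Promoter sequences are from RefSeq.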

Additional observations from a re-analysis of the deposited data

Results flagged for a closer look

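In 11 differences, every array of one cytokine lay above 0 and every array of the other below it. This separation is a description. The share of all genes that meet this rule was not counted, so the number of members is no result about the list. Limma's test of each difference did not pass without the replicate block. Between IL-21 and IL-2 these were Pgk1, with a log2 difference of -2.02, Egln3 with -1.44, Hk2 with -1.05, Gapdh with -0.92, Vegfa with -0.83, Pfkp with -0.38 and Hk1 with -0.22. For Hk1 and Pfkp the separation held in the mean over probes and in no single probe, and for Pgk1 it held in 1 of its 2 probes. Between IL-21 and IL-15 the differences were those of Pgk1 with -1.51, Egln3 with -1.27, Vegfa with -1.10 and Gapdh with -0.54, the last with an IL-15 replicate 3 value of only 0.02. The IL-21 arrays were the ones below 0 in each. Adjusted p-values ran from 0.0818 for Pgk1 to 0.999 for Hk1 and Pfkp, and with the replicate block those of Pgk1 and Egln3 between IL-21 and IL-2 were 0.0257 and 0.0449, and 0.109 and 0.171 in the blocked fit without the IL-2 replicate 3 array.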

How the results depend on the processing

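Called members depended on the processing more than the size of their changes did. For IL-2 the count of 3 became 0 with quantile normalization, 6 with the replicate block, 6 with a dye term, 0 without IL-2 replicate 3 with or without the replicate block, 0 to 0 without any 1 replicate, and 0 with the sign of replicates 2 and 3 turned. For IL-15 the count of 0 became 2 with the replicate block and 1 with a dye term. The dye term set replicate 1 against replicates 2 and 3, following the exchange that the labels contradict. It cannot be told apart from a difference between those replicates. The random block left 3 for IL-2 and 0 for IL-15. Between IL-21 and IL-2 it became 3 with the replicate block, 0 with the block once IL-2 replicate 3 was left out, and 6 with the random replicate block, and between IL-21 and IL-15 4 with the random block. Over all genes, 140 were called for IL-2, against 19 with quantile normalization, 342 with the replicate block, 284 with a dye term, 6 without IL-2 replicate 3 and 0 to 69 without 1 replicate. For IL-15 the 22 became 122 with the replicate block, 170 with a dye term and 0 without any 1 replicate. Between IL-21 and IL-2 the 14 became 92 with the block, 201 with the random block, 90 with a dye term and 1 with quantile normalization, and between IL-21 and IL-15 the 3 became 32, 127, 39 and 1. For IL-21 the 0 became 23 with the block and 19 with a dye term. Turning the signs, or leaving out 1 replicate, gave 0 between cytokines. The replicate block changed no other call of a member. The median IL-21 minus IL-2 difference lay between -0.41 and -0.22 without 1 replicate, the weakest without replicate 3, and was -0.24 without IL-2 replicate 3 and -0.28 with the replicate block added there. That last fit was chosen after seeing the data.

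Turning the sign of replicates 2 and 3 reversed each member that passed any test. The values became -0.31 (Aldoa) and -0.45 (Egln3) for IL-15, and -0.61 (Aldoa), -0.55 (Tpi1), -0.83 (Pgk1), -0.28 (Ldha), -0.38 (Slc16a3) and -0.82 (Egln3) for IL-2. Between IL-21 and IL-2 they became 0.71 (Aldoa), 1.01 (Tpi1), 0.62 (Gapdh), 0.80 (Pgk1), 0.36 (Slc16a3) and 0.76 (Egln3), and between IL-21 and IL-15 0.40 (Aldoa), 0.18 (Pgk1), 0.40 (Egln3) and 0.39 (Vegfa). The members' medians became -0.042 for IL-15, -0.11 for IL-2, 0.22 for IL-21 minus IL-2, 0.075 for IL-21 minus IL-15 and 0.11 for IL-15 minus IL-2. No gene passed in any of the 6 comparisons under this setting.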

Other observations

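The probe that Ankrd37 shares with Lrp2bp had log2 ratios of 0.22, -0.88 and -0.46 with IL-21, of 0.66, -0.56 and 0.44 with IL-15, and of 0.26, 0.73 and 0.17 with IL-2, and which of the 2 genes it measured cannot be told apart.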
